A study of Mus musculus with 15 samples.

Results

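The MAP kinase cascade genes were taken as every entry of the count table whose symbol in the mouse Ensembl annotation begins with Mapk, Map2k, Map3k or Map4k. There were 51 such entries among the 37310 genes of the table. Of these, 50 passed the filter on low counts and were tested together with 18008 genes in all. The entry that did not pass is a second Map3k4 entry on the opposite strand, which had 0 or 1 read in every library and shares 99.33% of its exonic bases with the other Map3k4 entry. The members were 13 MAP kinases, 7 MAP2Ks, 16 MAP3K entries, 5 MAP4Ks, 3 MAP kinase-activated protein kinases (Mapkapk genes) and 7 scaffold or binding proteins (Mapk8ip1, Mapk8ip2, Mapk8ip3, Mapk1ip1, Mapk1ip1l, Mapkbp1 and Mapkap1).

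Expression was measured by RNA-seq of whole hippocampus from wild-type male C57BL/6J mice of 2 months of age. Every mouse was handled beforehand. Fear-conditioned mice (FC) were given 1 foot shock of 1.5 mA for 2 s that ended 2.5 min after they entered the chamber, and their tissue was taken 30 min later. Retrieval mice (RT) had the same training, were returned to the chamber 24 h afterwards for a memory test of 5 min, and were dissected 30 min after it. Control mice (CC) were handled but neither placed in the chamber nor shocked, so a difference from CC covers the context, the shock and, in RT, the test. Each group had 5 libraries, numbered 3, 5, 6, 7 and 8, and the study states that each library came from both hippocampi of 1 mouse.

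A MAP kinase cascade is a relay of protein kinases. A MAP3K, in some pathways activated by a MAP4K, phosphorylates a MAP2K, and the MAP2K then phosphorylates a MAP kinase on a threonine and a tyrosine that flank 1 residue in its activation loop. The ERK branch, to which Mapk3 belongs, answers to Ras and Raf and is needed for contextual fear memory, the JNK branch (Mapk8, Mapk9, Mapk10) and the p38 branch (Mapk11 to Mapk14) answer to stress and cytokines, and Mapk7 encodes the larger kinase ERK5. Activation of these kinases is a change of the protein, which mRNA levels do not measure.

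The coding sequence around that motif is shown for 10 of the MAP kinases because it is the site at which the tiers meet. Its middle codon sets apart the JNK and p38 branches. The 3 codons of the motif are in capitals, with 4 codons on either side, 5′ to 3′, read from the longest coding sequence of each gene.
Mapk3: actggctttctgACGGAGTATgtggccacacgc
Mapk7: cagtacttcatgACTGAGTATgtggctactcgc
Mapk15: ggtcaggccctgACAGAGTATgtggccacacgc
Mapk8: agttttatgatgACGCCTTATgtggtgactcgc
Mapk9: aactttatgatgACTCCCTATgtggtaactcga
Mapk10: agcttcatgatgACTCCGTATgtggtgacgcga
Mapk11: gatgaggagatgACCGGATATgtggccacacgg
Mapk12: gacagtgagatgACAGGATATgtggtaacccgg
Mapk13: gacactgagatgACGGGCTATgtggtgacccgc
Mapk14: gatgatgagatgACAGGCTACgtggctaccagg
The middle codon encoded glutamate in Mapk3, Mapk7 and Mapk15, proline in all 3 JNK genes and glycine in all 4 p38 genes. No such motif was found in the coding sequences of Mapk4 and Mapk6, which encode atypical MAP kinases.

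Each of these stretches lay within 1 coding exon of mm9. Those of Mapk3 (chr7:133906960-133906992, plus strand) and Mapk7 (chr11:61304912-61304944, minus strand) were in exon 4. Those of Mapk8 (chr14:34206177-34206209, minus strand), Mapk9 (chr11:49686320-49686352, plus strand) and Mapk15 (chr15:75826564-75826596, plus strand) were in exon 6. Those of Mapk10 (chr5:103418688-103418720, minus strand), Mapk11 (chr15:88976284-88976316, minus strand), Mapk12 (chr15:88965094-88965126, minus strand), Mapk13 (chr17:28913277-28913309, plus strand) and Mapk14 (chr17:28865332-28865364, plus strand) were in exon 7. Mapk11 and Mapk12 are neighbours on chromosome 15, as Mapk13 and Mapk14 are on chromosome 17. Across 10 pairs of related members the aligned coding sequences were 68.7% (Mapk11 and Mapk12) to 79.0% (Map2k1 and Map2k2) identical. The longest identical run in any of these pairs was 56 bases, in Map2k1 and Map2k2, which is shorter than the 100-base reads.

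In untrained hippocampus genes of the ERK cascade were among the members of highest level. Levels are given in RPKM, which is reads scaled to exon length and library size, from counts normalized by upper-quartile (UQ) factors, as mean ± SD over the 5 CC libraries. Map2k1, which encodes the ERK activator MEK1, had 109.9 ± 6.48 RPKM and Mapk3 (ERK1) 85.6 ± 6.26 RPKM. Next in the order were 2 JNK scaffolds, Mapk8ip2 with 82.1 ± 4.33 RPKM and Mapk8ip1 with 78.4 ± 4.21 RPKM, whose ranges overlapped. Map2k4, an activator of JNK, had 52.0 ± 1.91 RPKM and Map3k10, a mixed-lineage kinase, 48.9 ± 2.15 RPKM. The other MAP3Ks reached at most 12.9 ± 0.502 RPKM (Map3k12, an axonal stress kinase), and the median over the 16 MAP3K entries was 3.46 RPKM against 19.98 RPKM over the 7 MAP2Ks and 10.3 RPKM over the 13 MAP kinases. The 16 include the second Map3k4 entry, with 0 or 1 read per library. Reads over exonic bases shared with another entry (among others Map3k4 55.37%, Map2k7 21.63%, Map3k12 17.48%) are not counted, but the exon length includes these bases. Mapkapk5 shares 13.66% with Tmem116 and 12.42% with Adam1a. Mapk8ip3 shares 10.7% with Eme2, 9.0% with Mrps34 and 3.97% with Nme3. The RPKM of such genes may therefore be too low. At the low end, Mapk13 had 0.184 ± 0.115 RPKM, from 3 to 31 reads per library over all 15 libraries.

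**Figure D1:**
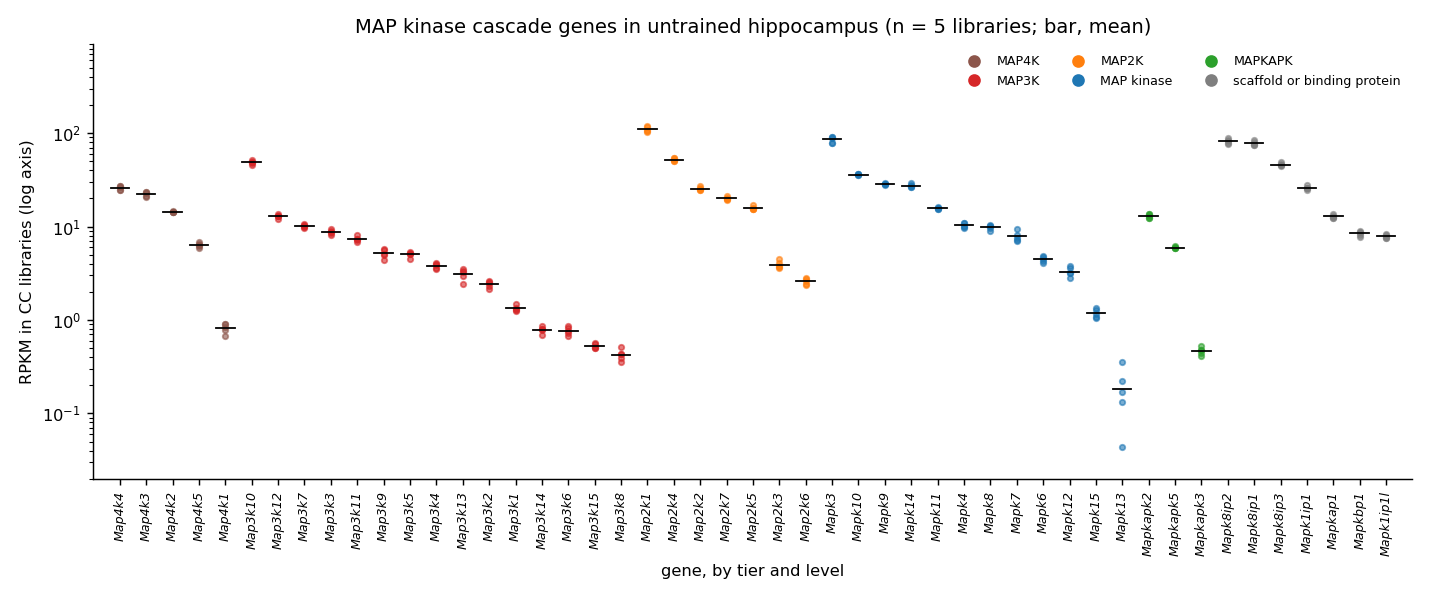
Level of 49 tested members in the 5 untrained (CC) libraries, in RPKM on a log axis, ordered by tier and level, with a bar at the mean. The highest means plotted are those of Map2k1 (109.9) and Mapk3 (85.6), and the lowest is that of Mapk13 (0.184).

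Neighbours in the order did not always differ beyond their spread. Among the MAP kinases the ranges of Mapk9 (28.7 ± 0.614 RPKM) and Mapk14 (27.4 ± 1.048 RPKM) overlapped, as did those of Mapk4 (10.3 ± 0.550 RPKM), Mapk8 (9.85 ± 0.55 RPKM) and Mapk7 (7.85 ± 1.01 RPKM), each with the next. Mapk10, the neuronal JNK3, made up 48.2% of the JNK sum, Mapk9 38.5% and Mapk8 13.2%. Of the p38 sum, Mapk14 (p38 alpha) held 58.6%, Mapk11 (p38 beta) 33.9%, Mapk12 7.07% and Mapk13 0.398%. Map2k1 held 81.2% of the sum of Map2k1 and Map2k2.

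The totals of the 15 libraries ranged from 35731428 to 62555543 counted reads. Fos, Egr1, Arc and Dusp1, early genes used here as a check, had higher log2 levels in FC and in RT than in CC (FDR 8.17e-04 or lower for each, edgeR). Libraries FC3 and RT3 stood apart from the other 13 in most genes, members included, and are described after the comparisons. Summed over 15 choroid plexus markers, none of which was at 0 in all libraries, the level was 66.2 to 78.8 RPKM in CC, 104.2 to 963.7 RPKM in FC (highest in FC5 and, with 440.9 RPKM, FC8) and 75.2 to 296.8 RPKM in RT. Markers of hippocampal excitatory neurons summed to 1407 to 1829 RPKM in every library, lowest in FC3. In whole tissue, fewer cells of a type and less RNA per cell cannot be told apart.

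FC differed from CC in 4 of the 50 members. Map3k2, Map3k14 and Map2k3 rose and Mapk11 fell, by a factor of 1.30 or less each, at an FDR of 0.01 or less over all 18008 genes in the study's model (edgeR likelihood ratio test with UQ factors and 5 RUVs factors of unwanted variation). The model called 2.24% of all tested genes in this comparison, 1.32% higher and 0.922% lower. The members' shares were 8% called, 6% higher and 2% lower. With UQ factors alone no member passed, 2 members and 3.07% of all genes had an unadjusted p below 0.05, and 0.189% of all genes were called, 0.178% higher and 0.0111% lower. The quasi-likelihood F test called 1 member, Map3k2, with 0.544% of all genes, 0.455% higher and 0.0888% lower. DESeq2 also called 1, Map3k2, with 0.911% of all genes, 0.661% higher and 0.25% lower. In the same comparison 14 of the 15 choroid plexus markers rose. Without FC5 and FC8 only Map3k2 was still called, and 1.07% of all genes were. Map3k14, Map2k3 and Mapk11 then had log2 fold changes of 0.27, 0.16 and -0.14 (edgeR FDR 0.107, 0.157 and 0.103). With all libraries they had 0.38, 0.19 and -0.16. Fewer FC libraries also make a call harder to reach. The part of choroid plexus RNA in these calls was not tested.

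Map3k2 encodes MEKK2, a MAP3K that activates the ERK5 and JNK branches. It lies at chr18:32322743-32396405 on the plus strand of mm9. UQ normalized counts were 1378, 1415, 1263, 1443 and 1178 in CC3, CC5, CC6, CC7 and CC8. In FC3, FC5, FC6, FC7 and FC8 they were 1034, 1508, 1678, 1506 and 1647. FC3 was the lowest of all 15 libraries, while the other 4 FC libraries were above every CC library. In RT3, RT5, RT6, RT7 and RT8 the counts were 1087, 1366, 1564, 1301 and 1589, which overlapped both other groups. FC exceeded CC by a log2 fold change of 0.22 ± 0.04 (SE, n = 5 per group, edgeR FDR 2.22e-05), 1.16-fold. It passed the threshold without each of the 15 libraries in turn, at an FDR of 1.26e-03 at most, and not with 3 RUVs factors (FDR 0.0113).

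Map3k14 encodes NIK, the kinase that starts non-canonical NF-kB signalling, at chr11:103081076-103128786 on the minus strand. The UQ normalized counts were 232, 265, 270, 260 and 286 in the CC libraries in the order of their numbers. They were 448, 351, 286, 348 and 328 in the FC libraries and 329, 357, 337, 289 and 225 in the RT libraries. FC did not overlap CC, although the lowest FC and the highest CC library both rounded to 286. It was the only member with that pattern in the UQ counts of all libraries, where 0.561% of all genes had FC wholly above CC. No member had FC wholly below CC, as 0.4% of all genes did. RT overlapped both. Of its exonic bases 2.06% are shared with another entry of the table, 1700028N14Rik. FC exceeded CC by a log2 fold change of 0.38 ± 0.09 (SE, n = 5 per group, edgeR FDR 1.26e-03). Without FC5 it was 0.33 and did not pass (edgeR FDR 0.0216). Without FC5 and FC8, the FC libraries with the most choroid plexus RNA, it was 0.27 (edgeR FDR 0.107).

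Map2k3 encodes MKK3, an activator of p38 kinases, at chr11:60745535-60766313 on the plus strand. UQ normalized counts were 603, 624, 684, 636 and 765 in CC, 976, 788, 730, 718 and 721 in FC, and 839, 757, 703, 742 and 753 in RT. CC8 lay within the FC and RT ranges and the other 4 CC libraries were below every FC and RT library. The log2 fold change was 0.19 ± 0.05 between FC and CC (SE, n = 5 per group, edgeR FDR 6.54e-03). This was the least stable of the calls, since it was lost without CC3, CC5, CC6, CC7, FC3, FC5, FC6 or FC7 (edgeR FDR 0.0104 to 0.0951). With the library number as a block it was 0.17 and did not pass (edgeR FDR 0.0269), and the other 3 calls held where 2.53% of all genes were called.

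Mapk11 encodes p38 beta, at chr15:88972916-88980036 on the minus strand, and is the member that fell. Its UQ normalized counts in CC were 1908, 2039, 1994, 1983 and 1939. In FC they were 3392, 1577, 1634, 1806 and 1744, so that FC3 was far above every CC library and the other 4 were below every CC library. In RT they were 2372, 1856, 1859, 1950 and 1730, with RT3 above all of CC and 3 of the other 4 below it. With the RUVs factors its log2 level fell by 0.16 ± 0.04 from CC to FC (SE, n = 5 per group, edgeR FDR 2.52e-03). With UQ factors alone the value was 0.04 with the opposite sign (edgeR FDR 0.98). Without FC3 and RT3 it was -0.22 with RUVs factors (edgeR FDR 7.20e-05) and -0.22 with UQ factors alone (edgeR FDR 0.0123, above the threshold). Leaving out FC5 or FC6 also ended the call (edgeR FDR 0.0553 and 0.0213).

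**Figure D2:**
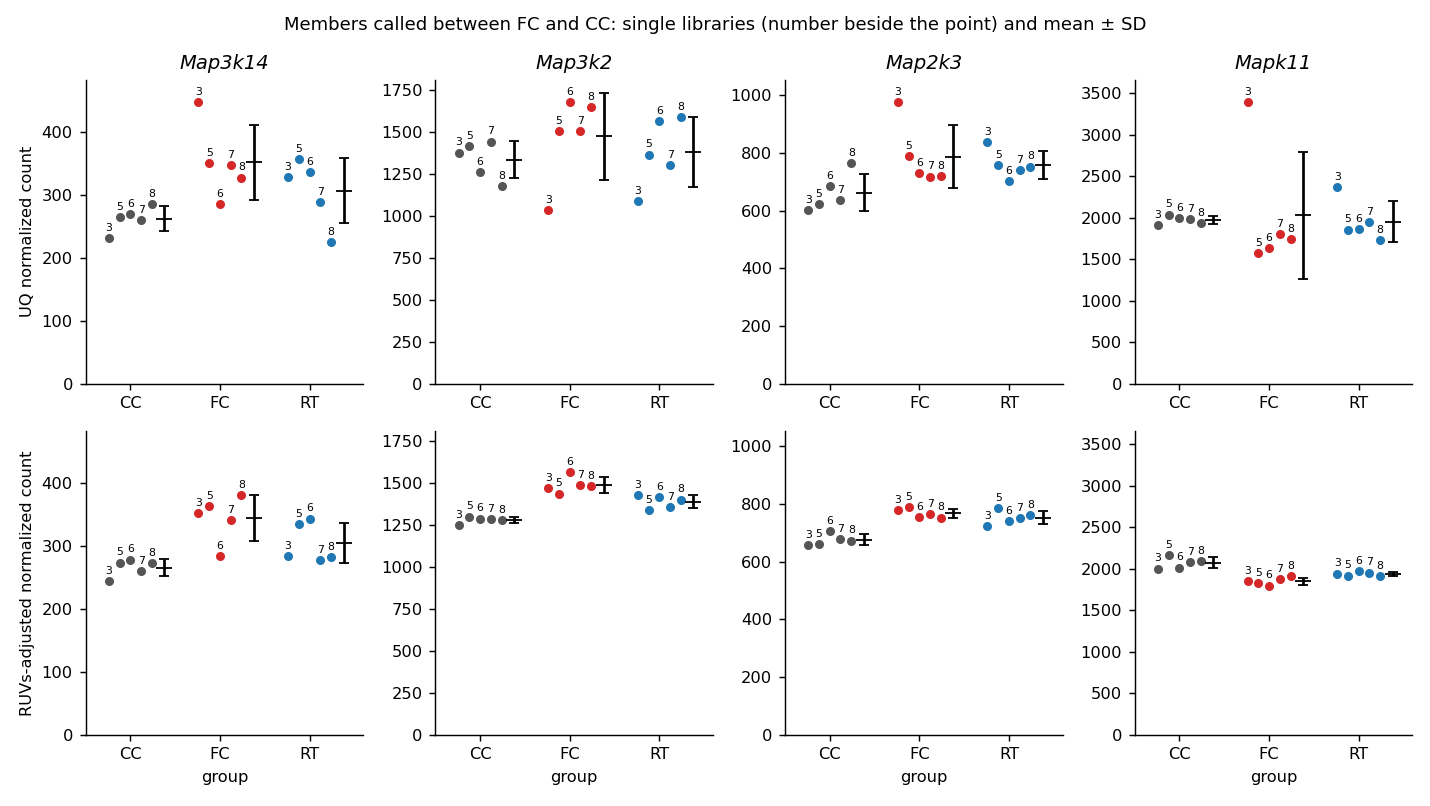
Counts of the 4 members called between FC and CC in each of the 15 libraries (n = 5 per group, library number beside each point), with mean ± SD to the right of each group, after UQ scaling (top) and after the 5 RUVs factors were also removed (bottom). FC3 is the lowest library for Map3k2 (1034) and the highest for Mapk11 (3392) in the top row, and lies among the other FC libraries in the bottom row, where the factors were estimated from differences within groups.

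After the RUVs factors were removed, the counts of FC3 lay near those of the other FC libraries. For Mapk11 they were 1849, 1827, 1799, 1872 and 1911 in FC against 2002, 2166, 2014, 2077 and 2094 in CC. For Map3k2 they were 1471, 1438, 1565, 1490 and 1483 in FC against 1249, 1301, 1289, 1285 and 1281 in CC. The median coefficient of variation of the members in FC was 17.8% after UQ and 2.23% after RUVs. In CC it was 5.6% and 2.57%. The factors were fitted on differences within groups, so a smaller spread within groups follows from the method. On these adjusted counts 5 members lay wholly higher in FC than in CC and 6 wholly lower, where 4.39% and 7.11% of all genes did so.

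Most of the other members had small log2 fold changes between FC and CC in the model with RUVs factors. Of the 50 members, 40 had a log2 fold change below 0.1 in size, against 70.2% of all tested genes, and the median was -0.02 against -0.01 over all genes. With UQ factors alone, 24 of the 50 and 42.9% of all genes were below 0.1. The next smallest p-values belonged to Map3k12, with a log2 fold change of -0.11 ± 0.03 (edgeR FDR 0.0178), and Mapk7, with 0.15 ± 0.05 (edgeR FDR 0.0498), and neither passed. Mapk7 encodes ERK5 and passed when CC8 was left out (edgeR FDR 3.93e-03). Of the exonic bases of Map3k12, 17.48% are shared with its opposite-strand neighbour Pcbp2. Reads over these bases are not counted for either gene, since the library kit does not mark strand.

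Map2k1, Map2k2 and Mapk3 of the ERK branch passed the test in neither comparison with CC. Between FC and CC, Map2k1 had a log2 fold change of -0.03 ± 0.03, Map2k2 of 0.03 ± 0.03 and Mapk3 of -0.02 ± 0.04 (edgeR FDR 0.697 to 0.893). In the JNK branch the values were -0.06 for Map2k4, -0.02 for Map2k7, -0.02 for Mapk8, -0.04 for Mapk9 and -0.06 for Mapk10, each with an SE of 0.04 or less. The other p38 genes had 0.06 ± 0.03 (Mapk14), -0.06 ± 0.07 (Mapk12) and 0.47 ± 0.27 (Mapk13), and Map2k6, which like Map2k3 activates p38, had -0.08 ± 0.07. Map3k1, a MAP3K upstream of JNK, had 0.06 ± 0.06, Map3k3 -0.02 ± 0.04 and Map2k5, the activator of ERK5, -0.02 ± 0.04. These errors hold within the model with RUVs factors. With UQ factors alone Mapk3 had 0.14 ± 0.17 (edgeR FDR 0.966) and Map2k2 0.32 ± 0.23 (edgeR FDR 0.966).

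By tier, 2 of the 15 tested MAP3Ks, 1 of the 7 MAP2Ks and 1 of the 13 MAP kinases were called between FC and CC, and none of the 5 MAP4Ks, 3 Mapkapk genes or 7 scaffold and binding proteins. The MAP4Ks had log2 fold changes of -0.08 to 0.05, the smallest p being that of Map4k3 (-0.08 ± 0.03, edgeR FDR 0.123). The scaffold and binding proteins stayed between -0.05 and 0.04. Outside these calls Map3k5, which encodes the oxidative stress kinase ASK1, stood at -0.09 ± 0.04 (edgeR FDR 0.183), and Mapk15, an atypical MAP kinase of low level, had 0.23 ± 0.09 (edgeR FDR 0.148).

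**Figure D3:**
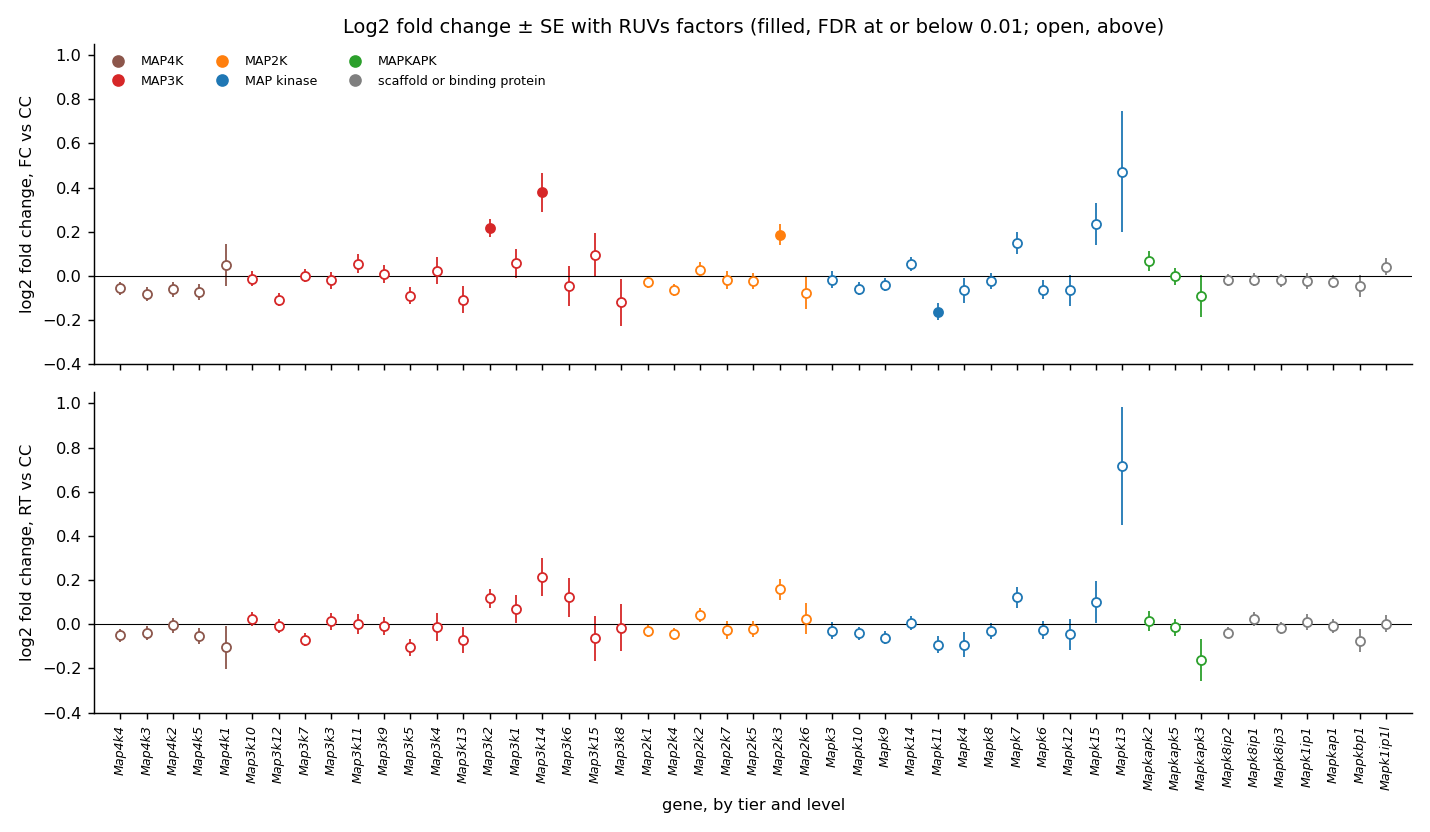
Log2 fold change ± SE of 49 tested members between FC and CC (top) and between RT and CC (bottom), from the model with RUVs factors (n = 5 libraries per group), with filled symbols at an FDR of 0.01 or less. Filled symbols are Map3k2 (0.22), Map3k14 (0.38), Map2k3 (0.19) and Mapk11 (-0.16) in the top panel, and there are none in the bottom panel. Both panels use the same CC libraries.

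In RT against CC no member passed the threshold in edgeR with RUVs factors, where 1.01% of all tested genes did, 0.866% higher and 0.144% lower. At an unadjusted p below 0.05 there were 10 members (20%) and 11.1% of all genes. No member was called with UQ factors alone (0.106% of all genes), the quasi-likelihood test (0.367%), DESeq2 (0.472%) or the block (1.18%) either. In UQ counts no member had RT wholly above or below CC, as 0.9% and 0.455% of all genes had. The smallest p belonged to Map2k3, with a log2 fold change of 0.16 ± 0.05 (edgeR FDR 0.0626), which passed only when CC8 was left out (edgeR FDR 5.38e-03). Map3k2 had 0.12 ± 0.04 (edgeR FDR 0.148), Map3k14 0.21 ± 0.09 (edgeR FDR 0.266) and Mapk11 -0.09 ± 0.04 (edgeR FDR 0.283), beside the FC values of 0.22, 0.38 and -0.16 that were measured against the same CC libraries. Mapk13 had the largest log2 fold change of the 50, 0.72 ± 0.27 (edgeR FDR 0.179), from 3 to 31 reads per library. Mapk7 had 0.12 ± 0.05 (edgeR FDR 0.25) and Map3k5 -0.10 ± 0.04 (edgeR FDR 0.169). Map3k7, which encodes TAK1, a kinase of cytokine signalling, had -0.07 ± 0.03 (edgeR FDR 0.35) and Mapk9 -0.06 ± 0.03 (edgeR FDR 0.452). The median over the members was -0.02 against -0.0012 over all genes, and 40 of the 50 were below 0.1 in size, as were 74.8% of all genes. With UQ factors alone 29 of the 50 and 52.6% of all genes were.

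The direct comparison of FC with RT called no member, and 0.122% of all genes were called, 0.0777% higher and 0.0444% lower in FC (edgeR with RUVs factors). There were 3 members (6%) with an unadjusted p below 0.05, and 10.7% of all genes. No member was called by DESeq2 (0.0222% of all genes), and neither a member nor any gene was called by the quasi-likelihood test (0%) or with UQ factors alone. In UQ counts no member had FC wholly above or below RT, as 0.0555% and 0.172% of all genes had. Library numbers were taken as pairing FC with RT, which rests on correlations and is not stated in the labels. With the number as a block 0.455% of all genes and again no member were called. The smallest FDR was that of Map3k12, lower in FC with a log2 fold change of -0.10 ± 0.03 (edgeR FDR 0.0970). Map3k2 differed by 0.10 ± 0.04 (edgeR FDR 0.284), Map3k14 by 0.16 ± 0.09 (edgeR FDR 0.479), Mapk11 by -0.07 ± 0.04 (edgeR FDR 0.531) and Map2k3 by 0.03 ± 0.05 (edgeR FDR 0.888). The changes called after conditioning are therefore not shown to differ from those after retrieval.

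FC3 and RT3 departed from the other libraries across the cascade before the RUVs factors were removed. In UQ counts, 19 members were higher in FC3 than in all 13 libraries other than FC3 and RT3, and 25 were lower, so that 6 of the 50 lay within their range. Over all tested genes the shares were 39.3% and 40.3%. In RT3 the counts were 15 and 24 members, with 35.9% and 30.3% of all genes. After RUVs, 0 members lay outside the range in FC3, as 0.25% of all genes lay above and 0.478% below it. In RT3, 0 members then lay above and 10 below, beside 7.02% and 6.25% of all genes.

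The departures changed the shares of genes within families of related kinases. Mapk3 had 142.5 RPKM in FC3 and 106.9 RPKM in RT3 against 76.9 to 92.6 RPKM in the other 13 libraries. The share of Map2k2 in the sum of Map2k1 and Map2k2 was 42.1% in FC3 and 26.4% in RT3 against 17.4% to 20.2% elsewhere, with a sum inside the others' range. Among p38 genes Mapk11 held 41.4% in FC3 and 37.0% in RT3 against 28.6% to 34.8%. Mapk14 held 48.6% and 54.4% against 56.7% to 63.7%. The p38 sum was higher, at 65.7 RPKM in FC3 and 51.4 RPKM in RT3 against 44 to 47.9 RPKM. The level of Mapk14 itself was above the other 13 libraries in FC3 and within their range in RT3. In the JNK family Mapk9 held 36.2% in FC3 and 36.3% in RT3 against 37.6% to 39.5%. Mapk10 held 50.7% and 50.6% against 46.8% to 49.8%, and the share of Mapk8 stayed within the others' range. The levels of Mapk8, Mapk9 and Mapk10 were each below the other 13 libraries in both FC3 and RT3. The JNK sum was lower, at 54.8 RPKM in FC3 and 60.1 RPKM in RT3 against 71.5 to 76.3 RPKM.

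The members that were high in FC3 had a higher median GC content and shorter exons than those that were low. Exonic GC content had a median of 56.4% among the 19 members above the range and 47.9% among the 25 below it, and exonic length had medians of 3722 and 6675 bases. Mapk3 has exons of 2163 bases in all with 58.3% GC. Across the 50 members, the log2 ratio of FC3 to the mean of the other 4 FC libraries had a Spearman correlation of 0.689 with GC content and -0.608 with length. For RT3 the values were 0.626 and -0.622. Over all 18008 genes they were 0.395 and -0.421 for FC3, and 0.325 and -0.475 for RT3. These are descriptions across genes, which are not independent replicates and share 1 library each. The parts of GC content and of length were not separated. Map3k13, a leucine zipper-bearing MAP3K, was furthest from the other FC libraries at -2.79 on this log2 scale, with 0.461 RPKM in FC3 and 1.18 RPKM in RT3 against 2.40 to 3.54 RPKM elsewhere.

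**Figure D4:**
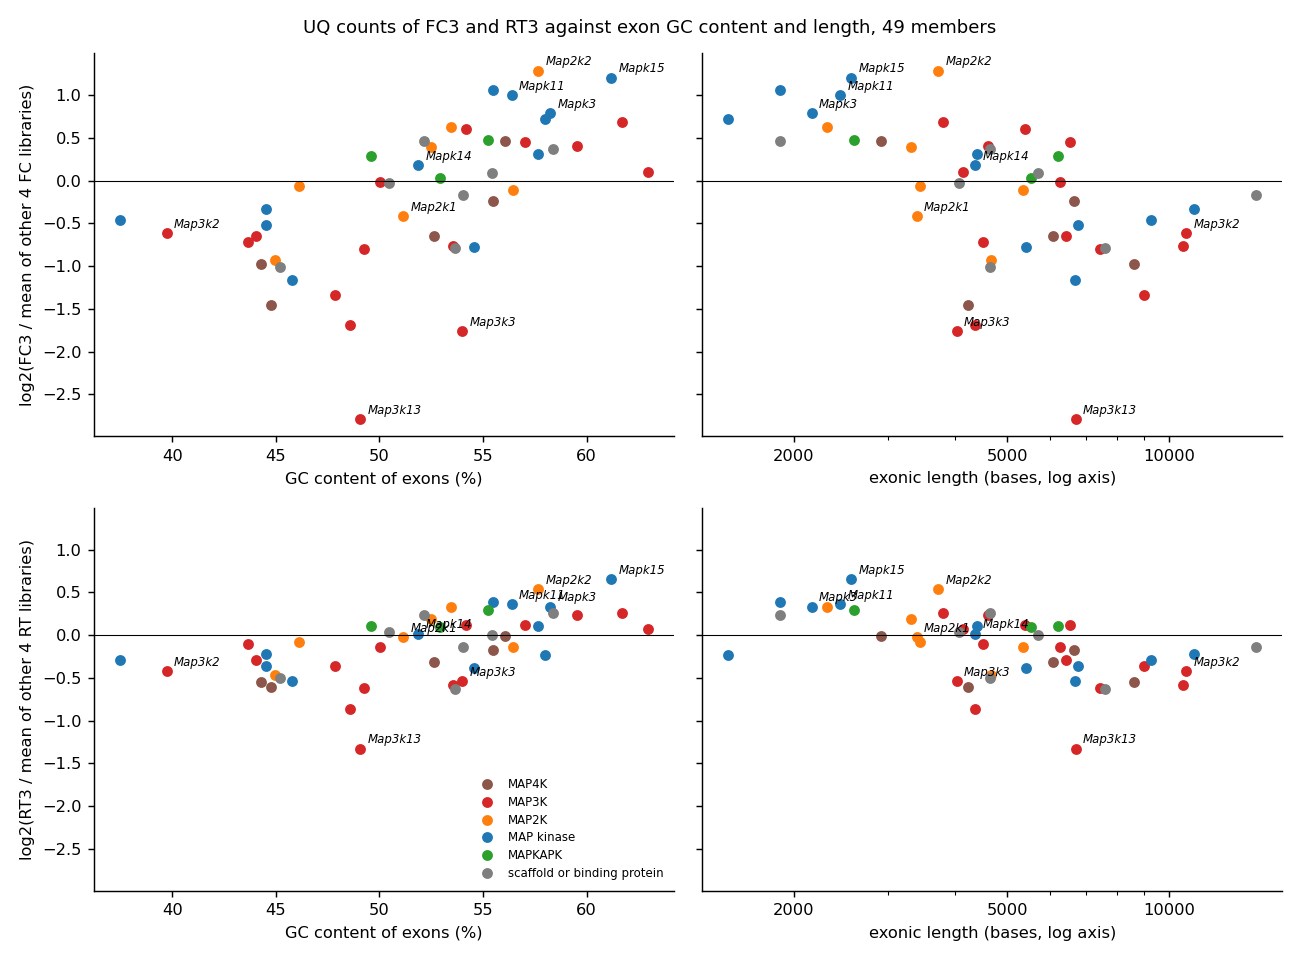
Log2 ratio of the UQ count in FC3 (top) or RT3 (bottom) to the mean of the other 4 libraries of its group, for 49 tested members, against exonic GC content (left) and exonic length on a log axis (right), coloured by tier. Mapk3 and Mapk11 lie above 0 in both libraries, and Map3k2 and Map3k13 lie below 0 in both.

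In FC3 and RT3 the summed markers of several other cell types were above their range in CC. Microglial markers summed to 338.1 RPKM in FC3 and 281.9 RPKM in RT3 against 188.3 to 207.2 RPKM in CC, oligodendrocyte markers to 1571 and 1377 RPKM against 957.5 to 1034 RPKM, and interneuron markers to 1983 and 1317 RPKM against 813.5 to 933.8 RPKM. Markers of astrocytes, endothelium and pericytes, blood, and striatum were also above it in both. Meningeal markers (59.8 and 70.7 RPKM) lay within the CC range of 43.1 to 80.6 RPKM, and neocortical markers (39.3 and 40.8 RPKM) lay below the CC range of 41.3 to 57.5 RPKM. Excitatory neuron markers lay below the CC range of 1512 to 1829 RPKM in FC3 (1407 RPKM) and within it in RT3 (1525 RPKM). Their part in the levels of the members was not tested. When FC3 and RT3 were both left out and the factors were computed again, Map3k2, Map3k14 and Mapk11 were still called between FC and CC and Map2k3 was not (edgeR FDR 0.0125). In UQ counts without them, 2 members were wholly higher in FC than in CC (Map3k2 and Map3k14) where 1.79% of all genes were, and 1 was wholly lower (Mapk11) where 1.28% were. No member was then wholly higher or lower in RT than in CC (1.34% and 0.683% of all genes) or wholly lower in FC than in RT (2.07%), and 2 were wholly higher in FC than in RT (1.53%).

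**Figure D5:**
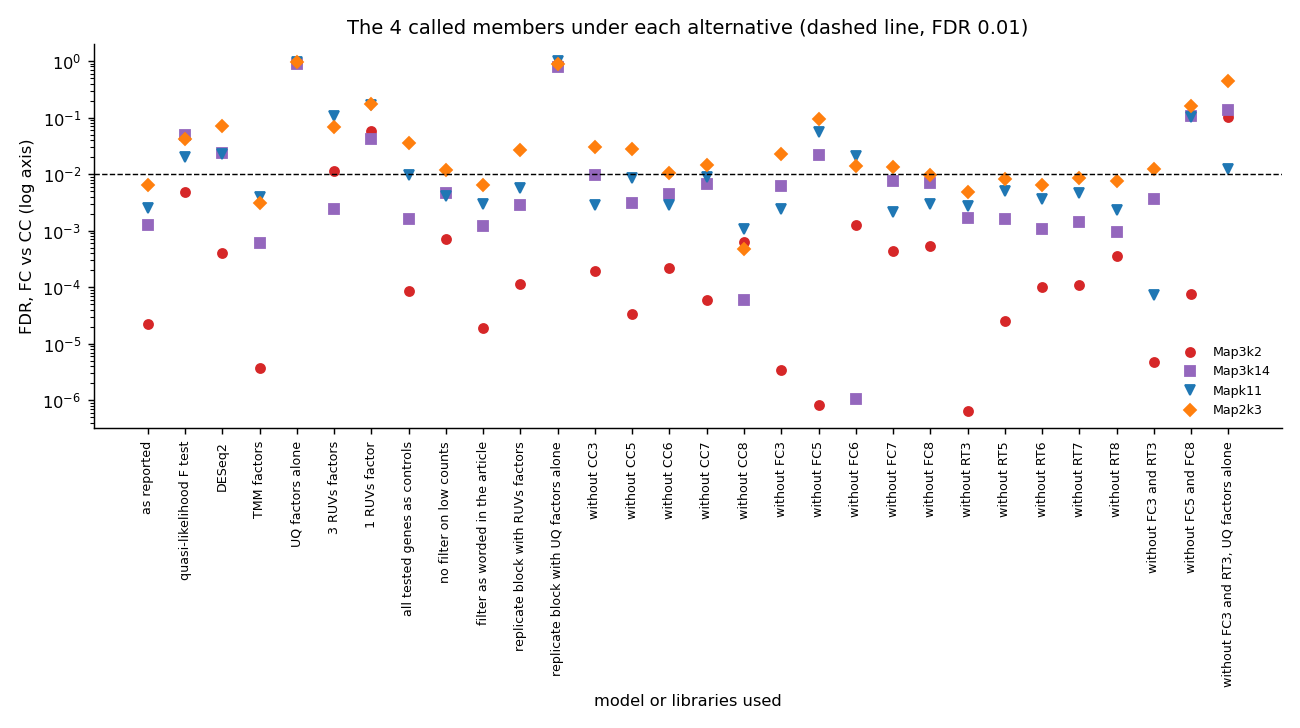
FDR of the 4 called members between FC and CC, on a log axis, in the reported model and under each other model or set of libraries, with a dashed line at 0.01. Map3k2 is below the line without each single library in turn, Map2k3 lies above it in 8 of these 15 models, and all 4 members are above it with UQ factors alone.

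Genes around the cascade were counted in 6 lists, which were chosen with earlier results of these data known. Of 40 tested genes downstream of MAP kinases (kinases, transcription factors and a few other targets such as Arc, which encodes a synaptic protein), 6 rose and 0 fell between FC and CC. Over all tested genes 1.32% rose and 0.922% fell. Fos, Arc and Egr1 of this list had already served as check genes above. On the log2 scale Fos rose by 2.36 ± 0.12 (edgeR FDR 6.19e-79), Arc by 1.48 ± 0.12 (edgeR FDR 6.46e-32), Junb by 0.98 ± 0.09 (edgeR FDR 1.18e-26) and Egr1 by 0.59 ± 0.11 (edgeR FDR 1.39e-05). Jun and Mknk2 also passed. In RT against CC, 5 rose and 1 fell, the last being Mef2c, a transcription factor of neuronal synapses (-0.18 ± 0.04, edgeR FDR 1.79e-03). Over all tested genes 0.866% rose and 0.144% fell in RT. The median of the list was -0.01 in FC and 0.01 in RT, beside -0.01 and -0.0012 over all genes.

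Of 33 tested phosphatases and feedback inhibitors of MAP kinases, 4 rose and 1 fell between FC and CC, and 5 rose in RT. Over all tested genes 1.32% rose and 0.922% fell in FC, and 0.866% rose and 0.144% fell in RT. Dusp1 of this list was also a check gene above. Dusp1, a nuclear phosphatase of p38 and JNK, rose by 0.90 ± 0.09 in FC (edgeR FDR 2.89e-19) and 0.92 ± 0.09 in RT (edgeR FDR 2.77e-20). Dusp5, a phosphatase of ERK, had 0.65 ± 0.09 in FC (edgeR FDR 9.96e-10) and 0.61 ± 0.09 in RT (edgeR FDR 2.11e-08). Errfi1, an inhibitor of the EGF receptor, had 0.30 ± 0.04 in both (edgeR FDR 1.32e-10 and 1.50e-10). Dusp6 passed in FC, Spry1 and Spry4 in RT, and Spred2, an inhibitor of Ras and Raf signalling, fell by 0.14 ± 0.04 in FC (edgeR FDR 8.08e-03). The same CC libraries served both comparisons. The list's median was -0.02 in FC and 0.02 in RT.

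Upstream of the cascade, the counts called stand beside 2.24% of all genes called in FC and 1.01% in RT. Of 31 tested Ras and Raf genes and their regulators, 1 rose and 1 fell in FC. Ksr2, a scaffold of the ERK cascade, rose by 0.35 ± 0.09 (edgeR FDR 6.07e-03). In RT only Rras2 passed, with 0.15 ± 0.04 (edgeR FDR 9.61e-03). Shc3, a neuronal adaptor of receptor kinases, was the only one of 28 receptors and adaptors to pass, with 0.24 ± 0.06 in FC (edgeR FDR 6.60e-03). None of 27 other kinases of the MAP3K and MAP4K tiers and none of 12 further scaffolds passed in FC or RT against CC. With UQ factors alone, 4 of the 14 genes of these 6 lists called between FC and CC passed, namely Fos, Arc, Junb and Dusp1.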

How the data were processed

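Polyadenylated hippocampal RNA was sequenced with 100-base paired reads, 3 libraries per lane. The authors aligned reads to mm9 with GSNAP, kept uniquely and concordantly mapped pairs and deposited raw counts per Ensembl gene from HTSeq 0.6.1; these counts were used unchanged. Members, tiers, marker lists and pathway lists were chosen with earlier results of these data known. All 37310 identifiers matched the annotation of the same build, from which symbols, positions and sequences were taken. A gene entered the tests if over 10 reads were counted in at least 6 libraries (18008 did). Following the study, edgeR (4.0.16, R 4.3.3) fitted 1 negative binomial model to 15 libraries with UQ factors and 5 RUVs factors from 625 negative control genes, none a member; the factors, recomputed, differed from the study's printed ones by at most 4.93e-07. Tests were likelihood ratio tests with Benjamini-Hochberg FDR over all tested genes and a threshold of 0.01. The SE is the log2 fold change over the root of the test statistic. RPKM was computed from UQ-scaled counts and exonic length. Each named gene was called in a comparison, belongs to a core cascade, is among the 5 highest of its tier, or has 1 of the 5 smallest p-values in a direction; Mapk4, Mapk6, Map3k4, Map3k13 and the scaffolds were named after their values were seen. For pathway lists, up to 4 calls with the smallest p were given, and the others were added as names or values. Libraries of the same number were taken as paired between FC and RT, which the labels do not state. Their deviations from the group means correlated at 0.306 to 0.9, while FC and RT libraries of different number reached 0.595 (median 0.165). No pairing was seen between CC and FC (same number -0.397 to 0.287) or CC and RT (-0.413 to 0.0952). The block was nevertheless fitted to all 15 libraries, CC included. Its comparisons with CC therefore use a pairing that these correlations do not show, with fewer residual degrees of freedom than the reported model. Results of 1 member and 1 pathway gene are not reported here, although both are in the counts. The depth of 35731428 to 62555543 reads left every member but Mapk13 and the second Map3k4 entry with at least 40 reads in each library. No library pair of a group matched within sampling noise (chi-square per degree of freedom at least 6.28). Alternatives were quasi-likelihood, DESeq2 (1.42.0), TMM, other factor numbers and controls, other filters, a block and left-out libraries.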

Additional observations from a re-analysis of the deposited data

Results flagged for a closer look

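In 28 of the 96 groups of 5 libraries formed by 32 named members and 3 conditions, 1 library's UQ normalized count was separated from the nearest of the other 4 by more than 0.71 of the group's range, a limit that chance passes in about 1 group in 20. The library was FC3 in 21 cases and RT3 in 7, and never another. The groups share these 2 libraries and are not independent. This rule was not applied to all tested genes. Of those, 39.3% lay above and 40.3% below the other 13 libraries in FC3, and 35.9% and 30.3% in RT3.

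Members with a high count in FC3 were Map2k2 (11490, against 4450 to 4905 in the other 4 FC libraries), Mapk3 (15757, against 8853 to 9630), Mapk11 (3392, against 1577 to 1806), Map2k5 (2777, against 1756 to 1839), Map3k11 (2342, against 1375 to 1548), Map2k3 (976, against 718 to 788), Mapk12 (606, against 283 to 299), Mapk15 (403, against 141 to 217) and Map3k6 (228, against 160 to 178). In RT3 the high counts were those of Map2k2 (7259, against 4723 to 5299 in the other 4 RT libraries) and Map2k5 (2304, against 1756 to 1905).

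Members with a low count in FC3 were Map2k1 (14377, against 18507 to 19586), Mapk9 (6892, against 9779 to 10072), Map2k4 (6474, against 11929 to 12640) and Map4k4 (5055, against 7423 to 8338). Mapk8 had 3380 (4536 to 4789 in the others), Map3k12 2325 (5644 to 6224), Map3k7 2179 (3344 to 3470), Map4k3 1767 (4597 to 4984) and Map4k5 1415 (2625 to 2944). Map3k2 had 1034 (1506 to 1678), Map3k3 566 (1831 to 2064) and Map3k1 309 (519 to 570). In RT3 the low counts were those of Mapk10 (17342, against 19699 to 20435), Map2k4 (8789, against 11831 to 12505), Mapk9 (7557, against 9451 to 10012), Map3k12 (4579, against 5860 to 5935) and Map3k7 (2586, against 3114 to 3240).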

How the results depend on the processing

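Of 2784 log2 fold changes of named members under the alternatives, 2739 kept their sign where called and their side of the threshold. Most of these belong to results not called in the reported model, which only had to stay uncalled. Another 42 lost the call, 2 gained one and 1 turned. All 42 losses and the turn were among the 4 members called between FC and CC. The turn was that of Mapk11 between FC and CC with UQ factors alone (0.042, edgeR FDR 0.98), where FC3 and RT3 are not adjusted. Without these 2 libraries the sign was negative again. The 3 members higher and 1 lower in FC than in CC became 1 and 0 with the quasi-likelihood test, with DESeq2, with 3 RUVs factors and without FC5 and FC8. They became 0 and 0 with 1 RUVs factor, with UQ factors alone, with UQ factors alone and the replicate block, and with UQ factors alone without FC3 and RT3. Leaving out 1 library at a time gave 1 to 4 higher (1 without FC5) and 0 to 1 lower (0 without FC5 or FC6) for FC, and 0 to 1 higher for RT (1 without CC8). With the replicate block and RUVs factors, 2 members were higher and 1 lower in FC, Map2k3 being lost (FDR 0.0269); the block changed no other member's call. The 14 pathway genes called between FC and CC became 8 with the quasi-likelihood test, 3 RUVs factors, 1 RUVs factor, or UQ factors alone without FC3 and RT3, 4 with UQ factors alone, 5 with these and the block, and 9 to 20 without single libraries. The 12 called in RT became 7, 7, 7, 6, 4, 5 and 9 to 14, and the 0 between FC and RT became 1 without FC3 and RT3, 1 without FC5 and FC8, and 0 to 1 without single libraries. In UQ counts without FC3 and RT3, chosen after seeing the data, members wholly higher in FC than in CC went from 1 to 2, wholly lower from 0 to 1, and wholly higher in FC than in RT from 0 to 2. The median RPKM of the members in CC was 8.90 with either scaling. The causes were not tested. Depth limits Mapk13, with 3 reads in its lowest library.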

Other observations

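In UQ counts without FC3 and RT3, Map3k7 and Mapk1ip1l were wholly higher in the 4 remaining FC libraries than in the 4 remaining RT libraries, where 1.53% of all tested genes were. Map3k7 had 10.2 to 10.6 RPKM in FC5, FC6, FC7 and FC8 and 9.48 to 9.87 RPKM in RT5, RT6, RT7 and RT8. The difference did not pass in the model of all 15 libraries (log2 fold change 0.07 ± 0.03, edgeR FDR 0.355). Mapk1ip1l had 8.31 to 8.68 RPKM in these FC libraries and 7.81 to 8.19 RPKM in these RT libraries (log2 fold change 0.04 ± 0.04 in the model of all 15 libraries, edgeR FDR 0.787).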
